A study of Mus musculus with 12 samples.

Results

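Treadmill training in old muscle was examined in the quadriceps femoris, the large extensor of the thigh, by comparing 3 RNA sequencing libraries of exercised old mice (numbers 4, 5 and 6) with 3 of sedentary old mice (also 4, 5 and 6). These are 6 of the 12 libraries of the series, chosen by their labelled age and treatment. The old mice were C57BL/6, an inbred laboratory strain, aged 28 months. Exercised animals ran for 8 weeks in 3 weekly sessions of 40 minutes at 8 to 12 m/min, and sedentary animals had no set running. Libraries of C57BL/6 mice aged 18 weeks, 3 exercised by the same regimen and 3 sedentary, served for comparison. The labels name no transgene or drug. Whether each library is 1 animal is not stated. A p-value here only sets the difference between groups against the spread of libraries within groups, which may be technical.

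Old libraries held 24.2 to 27.6 M counts, and those of the whole series 23.3 to 27.6 M. The labelled tissue matched its markers: Myh4, the fastest myosin heavy chain gene, had 58700 to 74200 CPM (counts scaled to a common library size), here of the plain library total, in the old libraries, and the muscle creatine kinase gene Ckm had 18400 to 22300 CPM. Some libraries stood apart. Old exercised library 4 held 124 CPM of Xist, the transcript of the inactive X chromosome of females. The other old libraries held at most 1.49 CPM, and the labels give no sex. Xist was also high in young exercised 8 and 10 (191 and 188 CPM) and young sedentary 1 and 3 (214 and 189 CPM). Young exercised 7 and sedentary 2 held 0.462 and 0.815 CPM. The part of sex in comparisons of old with young libraries was not tested. Old exercised library 6 held 304 CPM of the antibody light chain gene Igkc and 107 CPM of the fat cell hormone gene Adipoq, against at most 18.4 and 25.9 CPM in the other old libraries. Among the young libraries, sedentary 2 held 143 CPM of the skin keratin gene Krt5 and 84.7 CPM of Krt14, against at most 0.215 and 0.43 CPM elsewhere. Young sedentary 1 held 129 CPM of the liver gene Alb and 147 CPM of Adipoq, where the other young libraries had at most 19.7 and 22.8 CPM.

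Endurance running is known to act on muscle through calcium entry and energy demand during contraction, which raise mitochondrial, fat-burning and vessel-forming programmes, and with time can shift fibres away from the fastest type. Muscle size is also held in check by secreted ligands of the transforming growth factor β family, such as myostatin, which act through activin receptors and SMAD proteins. Aged muscle loses mass and fast fibres, and part of its fibres lose their nerve.

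Of the 9258 genes with a mean of at least 5 normalised CPM over the 6 old libraries, 12 passed edgeR's quasi-likelihood test at an adjusted p under 0.05 (0.13%), with 3 higher (0.0324%) and 9 lower (0.0972%) after training. The test was fitted to all 15304 tested genes and all 12 libraries. The median log2 fold change of the 9258 genes was −0.02, and 5% to 95% of them lay between −0.29 and 0.33. An unadjusted p under 0.05 was reached by 711 genes (7.68%), 232 of them positive and 479 negative. That number was 380 without sedentary library 4 and 983 without exercised library 5, the lowest and highest of the alternatives. The exercised and sedentary libraries did not overlap in 14.3% of the genes (exercised higher in 4.96%, lower in 9.38%), so a lack of overlap was common. Over all 15304 genes 89 passed (0.582%), of which 76 rose (0.497%) and 13 fell (0.0849%).

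These 12 calls depend on the fit. They fell to 0 when the model was fitted to the 9258 genes alone, where 661 genes had an unadjusted p under 0.05. DESeq2 called 76 genes, among them all 12, and limma voom 14, of which 11 were shared. Leaving out 1 old library gave 9 calls without exercised library 4, of which 2 were among the 12, 6 without exercised 5 (5 shared), 0 without exercised 6 or sedentary 5, and 1 without sedentary 4 or sedentary 6. All 12 genes kept their direction in each of 15 alternatives, and the 11 described below each passed in between 3 and 9 of them. The values below therefore describe the libraries first, with the test beside them.

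**Figure D1:**
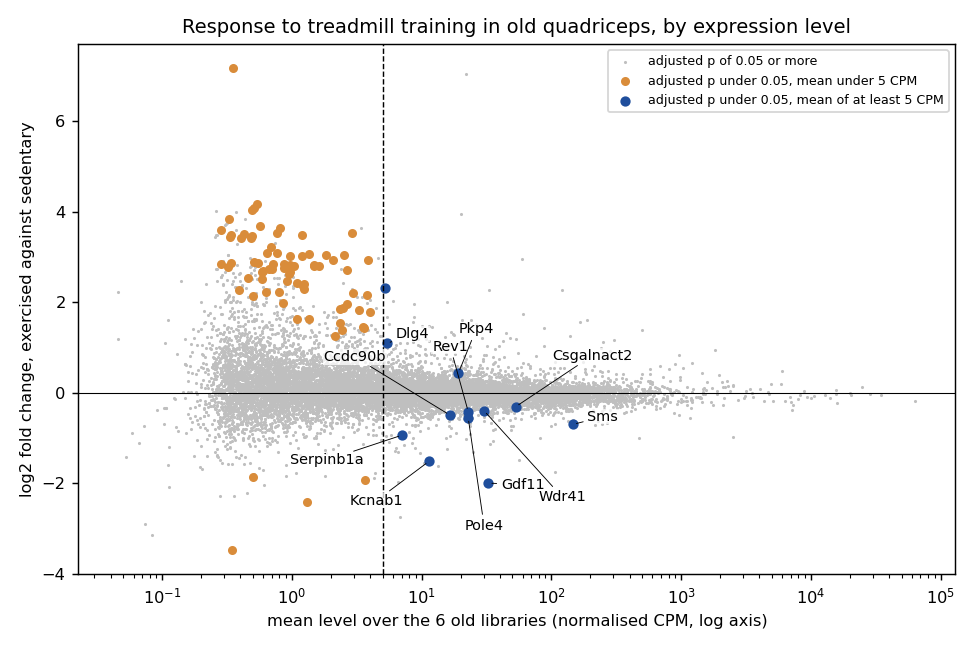
Each point is 1 of the 15304 tested genes, placed by its mean normalised CPM over the 6 old libraries (log axis) and its log2 fold change of exercised against sedentary old muscle; the dashed line marks 5 CPM. Of the genes past an adjusted p of 0.05, 77 lie left of the line, 73 of them above 0, and 12 lie right of it, 9 of them below 0.

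The largest fall was in Gdf11, which encodes a secreted ligand closely related to myostatin (ENSMUSG00000025352, chromosome 10, 128882295 to 128891718, GRCm38). Its normalised level was 68.1, 44.7 and 43.7 CPM in sedentary libraries 4, 5 and 6, and 12, 17.5 and 9.66 CPM in exercised libraries 4, 5 and 6. Every sedentary library thus stood above every exercised library (libraries are given in this order throughout). The mean went from 52.2 ± 13.8 to 13.1 ± 4.02 CPM (SD, n = 3 each), 3.99-fold lower, with a log2 fold change of −2.0 ± 0.309 (approximate SE; adjusted p = 0.0234 by edgeR). Young libraries ranged from 6.91 to 19.5 CPM, a range that held all 3 old exercised libraries and no old sedentary library.

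Sms, the gene of spermine synthase, which makes the last polyamine of the pathway from spermidine, had the smallest adjusted p of the genes that fell (ENSMUSG00000071708, X chromosome, 157443855 to 157492287). Sedentary libraries held 197, 168 and 179 CPM, exercised libraries 109, 121 and 106 CPM. The groups did not overlap, and the 1 old library with high Xist, exercised 4, lay between the other exercised libraries. The log2 fold change was −0.70 ± 0.107 (edgeR adjusted p = 0.014).

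Rev1, which encodes a scaffold polymerase that copies past damaged bases (ENSMUSG00000026082, chromosome 1, 38052786 to 38129801), had 24.6, 25.9 and 28.1 CPM in sedentary and 19.7, 21.0 and 18.0 CPM in exercised libraries. All exercised libraries were lower, and the log2 fold change was −0.42 ± 0.08 (edgeR adjusted p = 0.0409). The span of Rev1 meets that of Eif5b on the other strand, which had means of 182 CPM in sedentary and 185 CPM in exercised libraries. As the strand setting is not given, reads where they meet may be misassigned. Pole4, which encodes a small histone-fold subunit of DNA polymerase ε, was at 28.7, 25.3 and 27.4 CPM in sedentary and 19.6, 19.5 and 16.4 CPM in exercised libraries. Its groups did not overlap either, with a change on the log2 scale of −0.55 ± 0.101 (edgeR adjusted p = 0.0372).

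Promoters of these genes from RefSeq (GRCm38.p6), 300 bases each with the start site near the right end, are shown because the title of the series names ARNT, the partner of the hypoxia-inducible factors, whose core element is ACGTG or GCGTG. Capitals mark these letters on either strand. The windows lie on the minus strand at chr10:128891669-128891968 for Gdf11, chrX:157492238-157492537 for Sms and chr1:38129617-38129916 for Rev1.
Gdf11: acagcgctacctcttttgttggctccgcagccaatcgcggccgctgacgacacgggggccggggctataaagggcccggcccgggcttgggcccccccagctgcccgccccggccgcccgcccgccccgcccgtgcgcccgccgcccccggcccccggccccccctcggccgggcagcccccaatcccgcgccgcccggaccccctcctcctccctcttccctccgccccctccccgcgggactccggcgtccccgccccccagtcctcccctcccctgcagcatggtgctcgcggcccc
Sms: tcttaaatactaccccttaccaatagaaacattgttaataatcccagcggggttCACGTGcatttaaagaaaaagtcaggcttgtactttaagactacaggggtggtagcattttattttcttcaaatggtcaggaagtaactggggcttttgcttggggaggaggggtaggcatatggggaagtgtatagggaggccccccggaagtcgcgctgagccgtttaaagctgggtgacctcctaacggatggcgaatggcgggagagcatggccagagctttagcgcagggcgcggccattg
Rev1: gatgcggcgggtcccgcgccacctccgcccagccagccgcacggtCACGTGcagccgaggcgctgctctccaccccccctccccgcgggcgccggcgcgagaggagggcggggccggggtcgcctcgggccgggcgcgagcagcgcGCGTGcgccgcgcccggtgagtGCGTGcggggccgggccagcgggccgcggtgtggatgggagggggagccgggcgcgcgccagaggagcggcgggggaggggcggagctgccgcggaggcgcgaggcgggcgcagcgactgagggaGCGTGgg
The Gdf11 window held neither motif, this Sms window held a CACGTG, which reads as ACGTG on both strands, and the Rev1 window held a CACGTG and 3 copies of GCGTG. The table holds another Sms window, at chrX:157491319-157491618, with 0 ACGTG and 3 copies of GCGTG. Of 32851 RefSeq promoter windows of that length, 19.6% held ACGTG and 32.4% held GCGTG on either strand. Of the 12 genes 10 matched the table, with 18 windows between them, of which 6 held ACGTG (in 4 genes) and 8 held GCGTG (in 6 genes). A match of letters is not a bound site.

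Kcnab1 encodes a cytoplasmic subunit that speeds the closing of voltage-gated potassium channels. Sedentary libraries had 16.5, 18.2 and 15.8 CPM, and exercised ones 3.93, 8.94 and 4.75 CPM. The groups were far apart, and the log2 fold change came to −1.52 ± 0.288 (edgeR adjusted p = 0.0451). This gene overlaps a transcript on the same strand, AC113458.1, whose reads may be shared with it and which also fell (−2.41, edgeR adjusted p = 0.0355).

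Serpinb1a encodes an intracellular inhibitor of neutrophil serine proteases. Its level was 9.48, 9.85 and 8.46 CPM in sedentary and 5.32, 4.82 and 4.37 CPM in exercised libraries. No exercised library reached a sedentary one, and the log2 fold change was −0.94 ± 0.183 (edgeR adjusted p = 0.0455). The other genes that fell were changed less. Wdr41, part of the C9orf72 complex of the lysosome, went from a mean of 34.3 to 26.1 CPM, Ccdc90b, a mitochondrial coiled-coil protein gene, from 19.3 to 13.7 CPM, and Csgalnact2, an enzyme of chondroitin sulfate synthesis, from 58.7 to 47.3 CPM. None of these groups overlapped between treatments.

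Of the genes that rose, Dlg4, the gene of the synaptic scaffold PSD-95, had 3.61, 3.63 and 3.08 CPM in sedentary and 6.06, 9.18 and 6.72 CPM in exercised libraries (log2 fold change 1.09 ± 0.201, edgeR adjusted p = 0.0372). The groups did not overlap. The gene lies near the 5 CPM line, with a mean over the old libraries of 5.38 CPM. Just below it were Ndrg4 at 3.98, Slc1a2 at 3.83 and Kif5a at 3.77 CPM, which also rose. Pkp4, a plakophilin gene of cell junctions, was at 16.5, 16.3 and 16.1 CPM in sedentary and 22.9, 19.8 and 23.5 CPM in exercised libraries (0.43 ± 0.084, edgeR adjusted p = 0.0446). With the line at 10 CPM 9 genes passed, 1 higher and 8 lower.

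**Figure D2:**
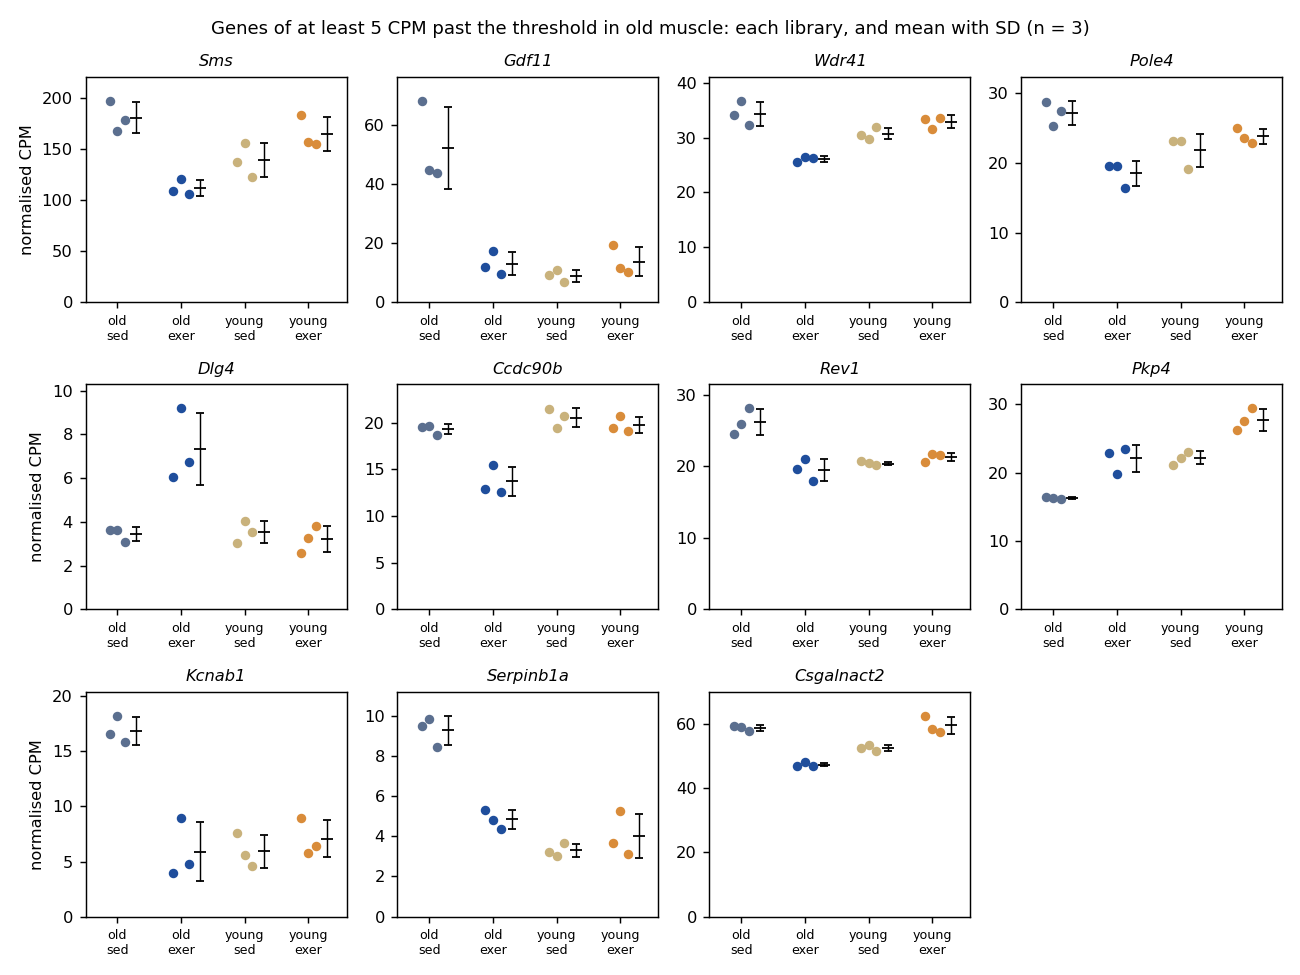
Normalised CPM (axes from 0) of 11 genes of at least 5 CPM past the threshold in old muscle; coloured points are single libraries of the 4 groups, and bars give the mean with SD (n = 3). In each panel the old exercised points lie wholly above or wholly below the old sedentary points, and in Gdf11 the old sedentary libraries stand above all others.

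In 4 of the genes that fell besides Gdf11, all 3 old sedentary libraries also lay above every young library. Old exercised libraries lay within the young range in 2 of 3 cases for Kcnab1 (4.62 to 8.94 CPM), Pole4 (19.1 to 25.0 CPM) and Serpinb1a (3.01 to 5.25 CPM), and in 1 of 3 for Rev1 (20.2 to 21.7 CPM). The rest lay below it for Kcnab1 (3.93 CPM), Pole4 (16.4 CPM) and Rev1 (19.7 and 18.0 CPM), and above it for Serpinb1a. For Sms 1 of the 3 old sedentary libraries was above the young range of 123 to 184 CPM, and all old exercised libraries were below it. All 3 old exercised libraries were also below every young library for Ccdc90b, Csgalnact2 and Wdr41, so 4 of the 9 genes went below the young levels in every exercised library. In young mice 8 of the 9 genes that fell in old mice had a positive log2 fold change, from 0.06 for Rev1 to 0.61 for Gdf11, and Ccdc90b had −0.06. None of these passed edgeR in young mice, where 2 of the 9258 genes did (0.0216%, or 0.0131% of all tested), Aff1 and Cep85l, both higher and named after their values were seen.

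The 24 genes of at least 5 CPM next in order of p, 12 in each direction, missed the threshold, with edgeR adjusted p from 0.0563 to 0.123, and are given as values. The largest negative value was that of Spock2, a matrix proteoglycan gene, which had 27.2, 23.3 and 21.6 CPM in sedentary and 9.01, 15.2 and 14.8 CPM in exercised libraries. The groups did not overlap, and all 3 old sedentary libraries lay above the young range of 6.76 to 15 CPM. Jph2, whose protein holds the calcium store against the surface membrane tubules, had means of 1140 ± 128 and 804 ± 70.4 CPM, and Reep1, a shaping protein of the endoplasmic reticulum, 122 ± 12.2 and 91.1 ± 7.36 CPM (SD, n = 3 each). Cbfb, the partner of the RUNX transcription factors, had 166 and 124 CPM. On the positive side Itga7, the laminin receptor subunit of muscle fibres, had means of 103 ± 2.07 and 129 ± 5.24 CPM, and Gys1, the muscle glycogen synthase, 439 ± 24.1 and 548 ± 21.6 CPM. The lysosomal protease gene Lgmn had 30.1 and 38.3 CPM, and the endothelin receptor gene Ednrb 5.55 and 9.45 CPM. Of the 12 negative genes 11 were positive in young mice, and of the 12 positive genes 7 were negative there.

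**Figure D3:**
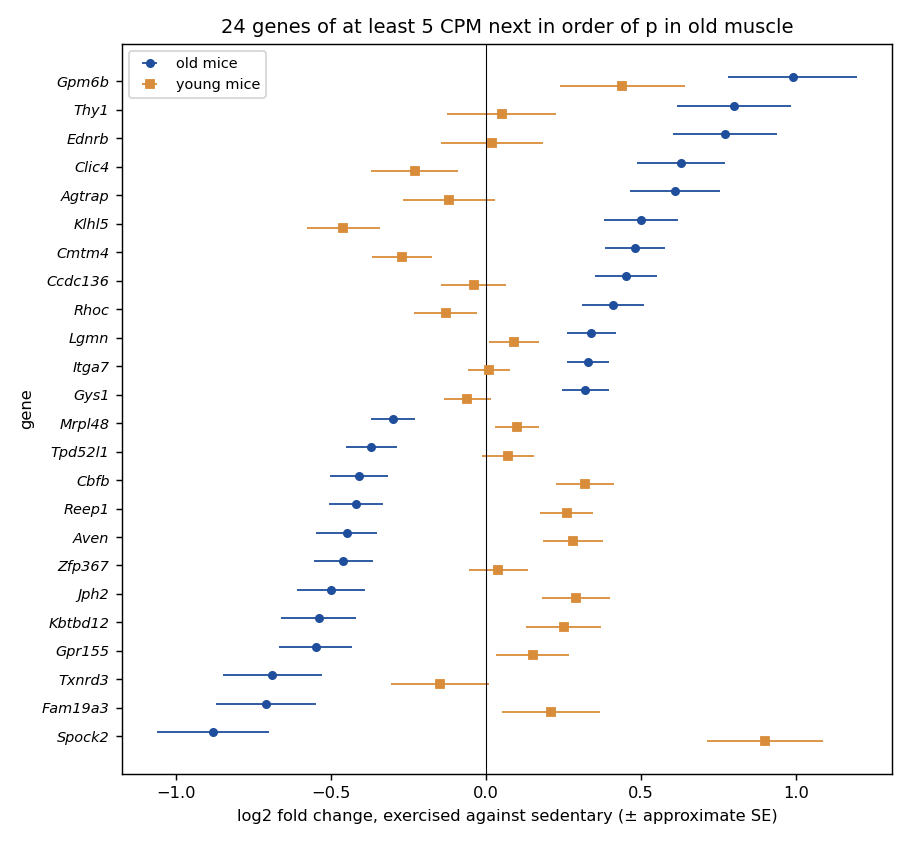
Log2 fold change of exercised against sedentary muscle (x axis, ± approximate SE) in old (circles) and young mice (squares) for the 24 genes next in order of p. The old values run from −0.88 for Spock2 to 0.99 for Gpm6b, and 11 of the 12 genes negative in old mice lie right of 0 in young mice.

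The responses of old and young muscle were compared across the 9258 genes. More young than old libraries had high Xist, and the part of sex here was not tested. Pearson's r between the log2 fold changes was −0.257 and Spearman's rho −0.263 over genes, which are not independent replicates. Of the 479 genes lower after training in old mice at an unadjusted p under 0.05, 398 (83.1%) were positive in young mice, and of the 232 higher genes 89 (38.4%) were. The share positive in young mice was 55.8% over all 9258 genes. The difference between the responses passed edgeR for 2 of these genes (0.0216%), Spock2 and Aff1, and 1413 (15.3%) had an unadjusted p under 0.05, a number that was 939 without old sedentary library 4 and 1756 without young sedentary library 2, which held the keratin transcripts. Over all tested genes it passed for 8 (0.0523%).

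The remaining results follow gene lists by role. In the lists described in the text below with 0 members past edgeR, DESeq2 and limma voom also called 0, apart from DESeq2's calls in calcium handling and in the exercise factors. Of lists with 0 past edgeR shown only in figures, DESeq2 called 1 member each of glycolysis and glycogen, senescence and p53, and lymphocytes and plasma cells. For calcium handling, 27 of 30 members had a negative log2 fold change and 0 passed edgeR. An unadjusted p under 0.05 was reached by 4 (7.68% over all genes of at least 5 CPM), and DESeq2 called 2, Jph2 and Stac3. The median was −0.18, against −0.02 over all genes of at least 5 CPM, and between −0.19 and −0.12 in 8 alternatives. In young mice 25 of the 30 were positive, with a median of 0.20. Ryr1, the calcium release channel, had 5830, 5460 and 4960 CPM without and 5230, 4770 and 4300 CPM with training, and these overlapped. Stac3, an adaptor that links voltage sensor and release channel, had 324, 270 and 267 against 231, 239 and 202 CPM, without overlap (edgeR adjusted p = 0.153).

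Genes of the fast sarcomere were similar in sign, with 15 of 18 negative and a median of −0.18, against 0.30 in young mice. Past edgeR were 0, and 2 had an unadjusted p under 0.05 (7.68% over all genes of at least 5 CPM). The mean of Myh4 was 67900 ± 7810 CPM without and 60200 ± 4180 CPM with training, and the libraries overlapped. Ampd1, the AMP deaminase of fast fibres, had 1080, 974 and 1000 against 830, 838 and 586 CPM. The sign of the slow sarcomere list changed between alternatives, with 9 of 16 positive, a median of 0.07 and a range of −0.49 to 1.31 over the alternatives. Myh7, the slow myosin heavy chain, had 0.893, 407 and 31.2 CPM in sedentary and 116, 136 and 46.9 CPM in exercised libraries, so the sedentary libraries held both the lowest and the highest value.

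Mitochondrial and fatty acid oxidation lists had small positive medians and 0 members past edgeR. At an unadjusted p under 0.05 (7.68% over all genes of at least 5 CPM) there was 1, among the 26 genes of mitochondrial biogenesis and dynamics. That list had 15 of 26 positive and a median of 0.02, between −0.03 and 0.05 over the alternatives. Its exercised libraries were higher without overlap in 3 members and lower in 6 (4.96% and 9.38% over all genes of at least 5 CPM). Complex I had 29 of 36 members positive (median 0.05), complexes II to IV 24 of 27 (0.08) and complex V 13 of 15 (0.10). Exercised libraries were higher without overlap in 6 members of complex V, 3 of complex I, 3 of complexes II to IV and 0 of the 20 TCA cycle genes (4.96% over all genes of at least 5 CPM), and lower in 1 each of complex I and the TCA cycle. Among those of complex V was Atp5b, the catalytic β subunit, at 2220, 2500 and 2390 CPM in sedentary and 2630, 2630 and 2620 CPM in exercised libraries. Fatty acid oxidation had 26 of 28 positive (median 0.13, between 0.04 and 0.22 over the alternatives), against a young median of −0.23. Ppargc1a, the coactivator of mitochondrial biogenesis, had 40.1 ± 3.02 and 45.8 ± 8.56 CPM in old mice, with overlap, and 35.0 and 101 CPM in young mice (edgeR adjusted p = 0.867 and 0.0631).

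Ligands and receptors of the transforming growth factor β family had 23 of 36 members negative and a median of −0.12, with Gdf11 the only 1 past edgeR. Myostatin (Mstn) was at 78.7, 76.0 and 74.2 CPM in sedentary and 67.3, 67.6 and 56.0 CPM in exercised libraries, lower in each exercised library, but not past the test (−0.26 ± 0.193, edgeR adjusted p = 0.756). Wfikkn2, which encodes a binding inhibitor of both ligands, had 18.8 and 14.9 CPM, and the activin receptor gene Acvr2a 50.8 and 37.6 CPM, with overlap in the latter. In the polyamine list 10 of 16 were negative and Sms alone fell. Odc1, the first enzyme of the pathway, had 173, 155 and 156 against 101, 128 and 140 CPM (edgeR adjusted p = 0.925). Its log2 fold change of −0.39 ± 0.721 ran from −0.49 to 0.22 over the alternatives. In the young libraries with low Xist, exercised 7 and sedentary 2, it was at 241 and 215 CPM. Those with high Xist held 49.1 to 54.2 CPM. The lowest old value was that of exercised 4, the old library with high Xist. DNA polymerase and repair genes had 20 of 30 negative, with Pole4 and Rev1 past edgeR.

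Arnt itself had 62.1, 60.3 and 54.0 CPM in sedentary and 66.4, 61.9 and 56.1 CPM in exercised libraries, which overlapped (edgeR adjusted p = 0.901). Of the 19 tested genes of the ARNT and hypoxia list 15 were positive, with a median of 0.17, and 0 passed edgeR. An unadjusted p under 0.05 was reached by 5 (7.68% over all genes of at least 5 CPM). Vegfa, the main vessel growth factor, had 183, 219 and 221 CPM in sedentary and 279, 323 and 257 CPM in exercised libraries. Every exercised library was higher, at a change on the log2 scale of 0.46 ± 0.15 (edgeR adjusted p = 0.329). The angiogenesis list had 23 of 26 positive (median 0.22) and the endothelial markers 20 of 20 (0.26), with young medians of −0.25 and −0.19. In either list 0 passed edgeR, and 2 in each had an unadjusted p under 0.05 (7.68% over all genes of at least 5 CPM). With 1 library left out the old medians ran from 0.13 (without sedentary 4) to 0.38 (without sedentary 6) and from 0.15 (without exercised 4) to 0.39 (without exercised 6). Markers of red blood cells were positive in 8 of 9 (median 1.25, 0 past edgeR), with sums of 215 to 598 CPM of the plain total in sedentary and 535 to 1280 CPM in exercised libraries, and their part in these values was not tested. The number of cells of a type and the RNA per cell cannot be told apart in whole muscle.

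Lipid synthesis genes had 18 of 21 positive and a median of 0.48, which was 0.13 without exercised library 6. Fasn, the fatty acid synthase, was at 28.2, 26.4 and 69.9 CPM in sedentary and 86.4, 26 and 485 CPM in exercised libraries, so that library 6 set the mean. The 13 tested adipocyte markers had a median of 1.29, and −0.32 without that library. Mss51, a muscle gene of mitochondrial metabolism on the list of exercise factors, had 117, 165 and 207 CPM in sedentary and 31.3, 73.4 and 41.6 CPM in exercised libraries, without overlap (−1.74 ± 0.404, edgeR adjusted p = 0.134). It passed in 1 of 15 alternatives, DESeq2. Its young means were 19.1 and 41.4 CPM.

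**Figure D4:**
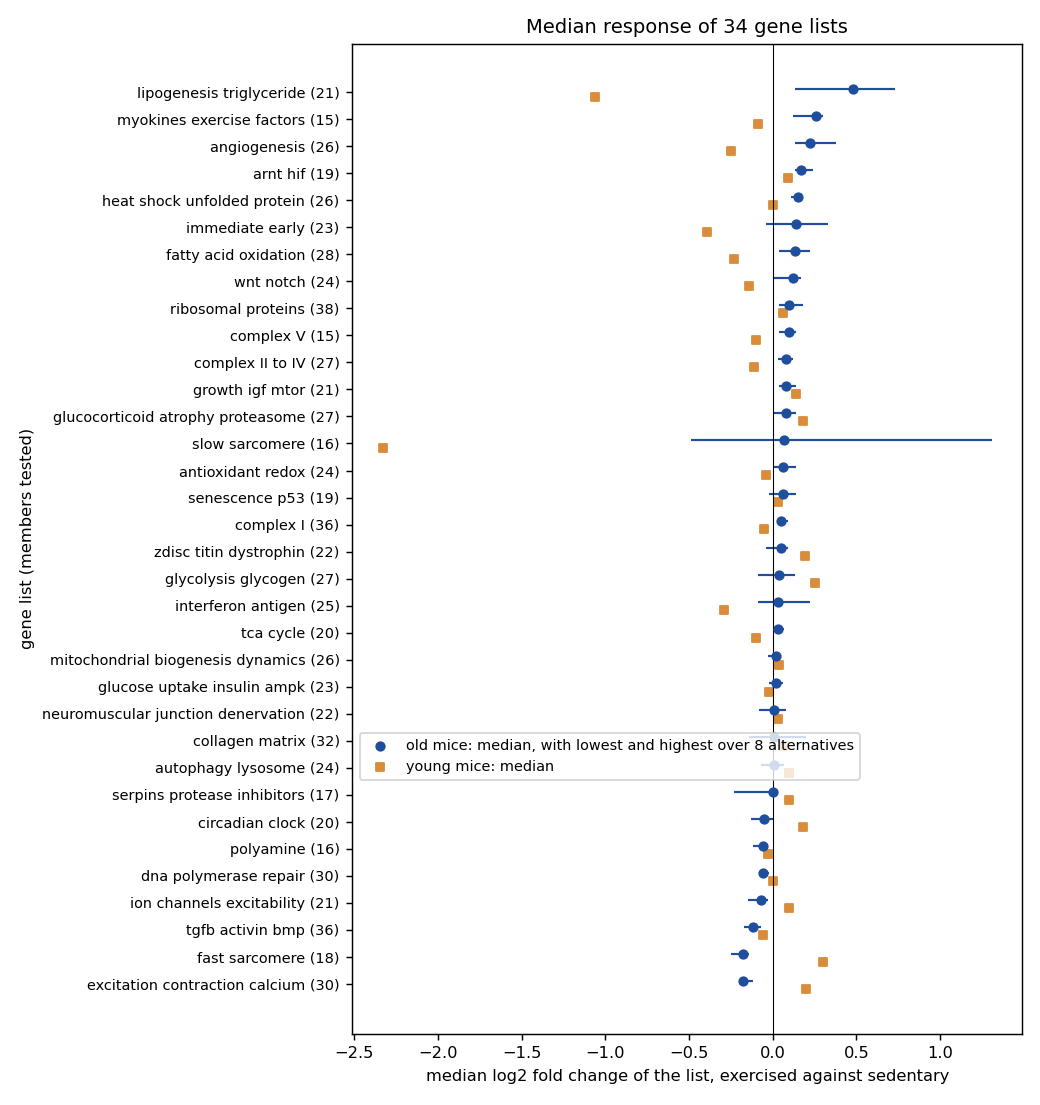
Median log2 fold change of exercised against sedentary muscle for 34 gene lists (members tested in brackets); circles are old mice, with a line from the lowest to the highest median over 8 alternatives (2 scalings and each old library left out), and squares are young mice. Calcium handling and fast sarcomere genes lie lowest in old mice at −0.18, and the slow sarcomere list has the longest line, from −0.49 to 1.31.

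Below 5 CPM most calls were rises. Of 6046 genes 77 passed edgeR (1.27%; groups did not overlap in 17.3%), 73 higher (1.21%) and 4 lower (0.0662%). The 73 had a median of 17 counts over the 3 sedentary and 116 over the 3 exercised libraries, and a median log2 fold change of 2.79. Their median in young mice was 0.03. The highest of them in exercised muscle were Slc1a2, the glutamate transporter of astrocytes, the motor protein genes Kif5a and Kif1a, the synaptic genes Snap25 and Cplx2, and Ndrg4, Enc1 and Map2. Slc1a2 had 0.855, 1.16 and 0.625 CPM in sedentary and 4.87, 7.62 and 7.84 CPM in exercised libraries, and the groups lay far apart. Of the 4 that fell, Zfp385b, a zinc finger gene, had 5.32, 3.55 and 8.46 against 1.11, 1.21 and 2.24 CPM, and Kcns1, a potassium channel gene, 0.707, 0.773 and 0.417 against 0.041, 0 and 0.116 CPM.

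Of the 73 low-count genes that rose, 17 are themselves on the lists of central neuron or glia markers. Those lists are therefore not a separate observation. Of 24 tested markers of central neurons 14 rose and 22 were higher without overlap, and of 10 glial markers 4 rose. Over all genes under 5 CPM 1.21% rose and 13.1% were higher without overlap. The filter keeps a gene with about 10 counts in as many libraries as a group holds. Low-count genes could thus be tested through the exercised libraries alone. Nefl, for example, had 4, 3 and 3 counts in sedentary and 28, 31 and 28 in exercised libraries. The numbers of rises are therefore no test of the lists. Without Camk2a, which muscle also expresses and which was set aside after its values were seen, the neuron list summed to 15, 22.3 and 22.5 CPM of the plain total in sedentary and 59.8, 75.5 and 72.1 CPM in exercised libraries. With it the sums were 476 to 559 and 378 to 513 CPM. Glial markers summed to 27.7 to 41.3 CPM in old sedentary and 52.7 to 71.2 CPM in old exercised libraries. Young libraries held 42.9 to 76.4 CPM without and 40.8 to 54.9 CPM with training, so the old exercised sums lay within the young range. Of these sums Aqp4 alone held 9.48, 12.1 and 22.3 CPM in old sedentary and 28.8, 17.0 and 21.4 CPM in old exercised libraries, with overlap. The 4 glial markers that rose were instead above every young library in all old exercised libraries. In normalised CPM, Mobp was at 1.47 to 1.93 against at most 0.254 in young libraries. Gfap was at 1.72 to 3.38 against at most 0.914, and Aldoc at 1.88 to 2.28 against at most 1.17. Slc1a2 lay above its young range of 0.739 to 1.42 CPM. No member of the neuron or glial list was at 0 in all old libraries. Markers of Schwann cells and peripheral nerve had a median of 0.13, which ran from −0.07 without exercised library 5 to 0.34 without exercised library 6, and 0 of 14 past edgeR, also without adjustment, with sums of 49.7 to 74.7 and 62.7 to 82.4 CPM. The part of these cell types in the rises of Dlg4 and the low-count genes was not tested.

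**Figure D5:**
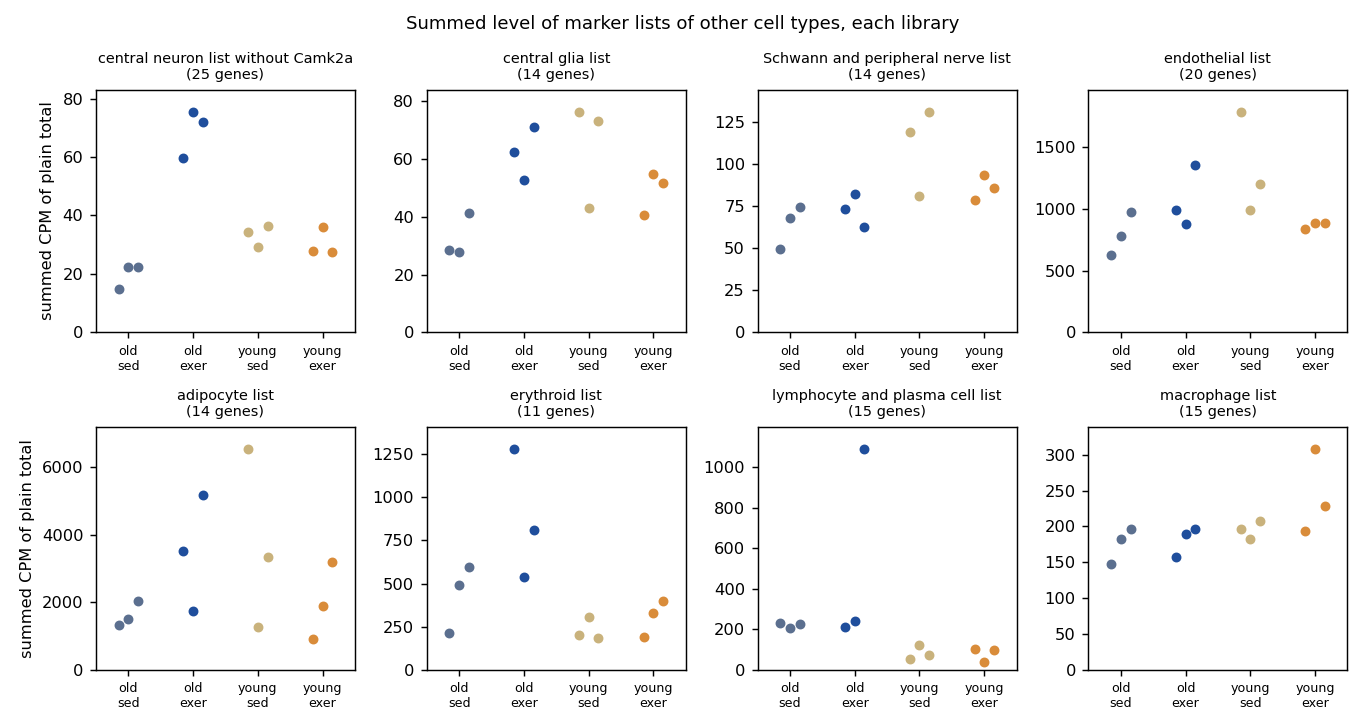
Summed CPM of the plain library total (axes from 0) for 8 marker lists of other cell types; each point is 1 library in its group. The central neuron list separates the old exercised libraries (59.8 to 75.5 CPM) from all others, while the lymphocyte and plasma cell list is high in 1 old exercised library, at 1090 CPM.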

How the data were processed

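RNA of 12 quadriceps libraries was sequenced, and 1 table of raw integer counts per gene, made by the authors, was deposited for each. Per the submitters' processing notes, the tools named are STAR 2.5.2b, featureCounts (Subread 1.5.2), Trimmomatic 0.36, bcl2fastq 2.20.0.422 and DESeq2, with build GRCm38. The strand setting, not given in the sources used here, leaves counts of overlapping genes uncertain. Of 49315 genes 48970 had a symbol.

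Libraries were grouped by labelled age and treatment. In R 4.3.3, edgeR 4.0.16 was run with filterByExpr (minimum count 10, minimum total 15), TMM scaling and a robust quasi-likelihood fit of 4 group coefficients to all 12 libraries. Exercise in old mice, in young mice and the difference were tested, with Benjamini-Hochberg adjustment over 15304 genes and a threshold of 0.05. Levels are TMM-normalised CPM unless said to be of the plain total, and SE is the absolute log2 fold change over the square root of F. Pairs of old libraries within a group differed by more than sampling noise (chi-square per degree of freedom 11.9 to 50.4).

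The members, gene lists (48) and tests were chosen with earlier results of these data known. Named are Arnt, genes of at least 5 CPM that passed, the 12 next in each direction, low-count genes that passed (the 8 highest that rose and those that fell), and the first 2, the called and the leading members of each list. Only part of that set is printed, and 1 gene of at least 5 CPM that rose is counted but not reported here. Alternatives were other scalings, filters, designs, DESeq2 1.42.0, limma voom 3.58.1 and each library left out.

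On simulated counts of 15051 genes for exercise in old mice, with 200 genes of at least 5 CPM changed, 28.4% of 1.5-fold, 91% of 2-fold and 100% of 4-fold changes were recovered, and 5.81% of calls were false. Each gene was drawn with the spread typical of its level and, unless changed, a single mean for all groups. Spread particular to a gene and libraries that stand apart were not simulated, so these shares may not hold for the real libraries.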

Additional observations from a re-analysis of the deposited data

Results flagged for a closer look

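The response to training differed between old and young mice, by edgeR's test of the difference itself, for 8 of 15304 genes (0.0523%). Of these 2 have a mean of at least 5 CPM in old muscle. Spock2, a matrix proteoglycan gene, had a log2 difference (old minus young) of −1.79 (edgeR adjusted p = 0.0417), with −0.88 in old and 0.90 in young mice. Aff1, which encodes a scaffold of transcription elongation, had −0.91, with 0 in old mice and 0.92 in young mice, where the exercised libraries stood at 94.6 to 105 CPM and the sedentary at 49.9 to 56.5 CPM. The other 6 are low-count genes that rose in old mice. The log2 difference was 2.84 for Ddn, 2.51 for Enc1, 2.22 for Kif5a, 2.66 for Tubb4a, 2.37 for Adcy1 and 6.59 for Jph3. Jph3 was at most 0.185 CPM in every young library, so its value rests on few counts. For Ddn, Kif5a, Tubb4a and Adcy1 the young log2 fold changes lay between −0.41 and −0.07. For Enc1 it was −1.08, with 4.47 to 6.6 CPM in young sedentary and 4.3 to 6.88 CPM in old exercised libraries. Tubb4a had 0.309 to 0.5 CPM in old sedentary and 1.78 to 2.17 CPM in old exercised libraries, the latter within the young range of 1.27 to 2.27 CPM. The summed markers of central neurons were higher in the same old exercised libraries, and their part in these differences was not tested.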

How the results depend on the processing

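Over all tested genes 89 passed in old mice. The count was 57 with the 6 old libraries only and 216 with DESeq2, and ran from 10 (without sedentary library 5) to 63 (without exercised library 4) with 1 library left out. Among genes of at least 5 CPM, 12 passed, against 6 with the old libraries only (3 of them shared), 0 when only these genes were fitted, 76 with DESeq2 (12 of them shared) and 0 to 9 with 1 library left out. With the minimum mean at 1 CPM 45 passed. A sex term gave 8, 5 of them shared. The numbers 4, 5 and 6 are shared by both groups, but same-numbered libraries did not deviate together (r = −0.152, −0.008 and 0.076), and not every library correlated best with its own number. With the number as a replicate block 29 genes passed in all and 1 of at least 5 CPM. The difference between the responses, 2 genes of at least 5 CPM, gave 7, all positive, with plain library totals, which move the median difference from 0.022 to 0.187, 0 when only these genes were fitted, and 0 to 33 with 1 library left out (33 without young sedentary library 2, 0 without any other). No named gene past the threshold for exercise in old mice reversed in any alternative, and other genes were not checked for this. Leaving out members of the central neuron and glia lists, an alternative chosen after seeing the data, gave 11 genes, and taking the mean over all 12 libraries, likewise, gave 10. The cause of these shifts was not tested. Changes near 1.5-fold were mostly below what 3 libraries a group recovered in simulation.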
